A study of Mus musculus with 6 samples.

Results

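The Cyp4 family of cytochrome P450 enzymes was examined in small intestinal organoids cultured with low-density lipoprotein (LDL) or with its vehicle, phosphate-buffered saline (PBS). The 10 genes described here are Cyp4a10, Cyp4a14, Cyp4a31, Cyp4a32, Cyp4b1, Cyp4f13, Cyp4f14, Cyp4f16, Cyp4f40 and Cyp4v3, out of 28 Cyp4 genes and 55416 genes in the table. They were chosen by symbol with earlier results of the same LDL and PBS libraries known, so their differences between the treatments are given as a description, with no p-value. Crypts came from the duodenum and jejunum of 3 mice, labelled as strain C57BL/6 and genotype WT, and the organoids of each mouse were treated for 5 days with 50 μg/ml LDL or with PBS. Each mouse thus gave 1 LDL-treated and 1 PBS-treated library, and the pairs are called mouse 1, mouse 2 and mouse 3. The age and sex of the mice are not given in the sources used here. The sample code shared by both libraries of mouse 3 has another prefix than the codes of mice 1 and 2, although the genotype label is WT for all, so results without mouse 3 are given where they differ.

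Cyp4 enzymes are membrane-bound monooxygenases of the endoplasmic reticulum that take electrons from cytochrome P450 reductase and hydroxylate the far, omega end of fatty acids. The resulting alcohol is oxidized to an aldehyde and then to a dicarboxylic acid, which peroxisomes shorten by beta-oxidation, and the same enzymes also hydroxylate arachidonic acid and leukotrienes. In rodent liver the Cyp4a genes are classical targets of the fatty acid receptor PPARα. The Cyp4f genes are better known for leukotrienes and for the side chains of vitamin E and vitamin K.

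Values are normalized counts, that is, reads on a gene divided by 1 size factor for each library. Between 22061545 and 31073360 reads per library fell on genes. The LDL-treated library of mouse 1 stood apart, with reads on 35781 genes against 29285 to 32751 in the other 5 libraries and 7.62% of its reads on the ribosomal RNA gene Rn18s-rs5. Markers of stromal cells summed to between 15.5 and 41.5 normalized counts per library and endothelial markers to at most 25.6. Immune cell markers summed to between 115 and 204, nearly all of it Cd68, against 27040 to 54240 for 8 enterocyte markers. Of the stromal list, Dcn was at 0 in all PBS libraries and in LDL mouse 2. In bulk RNA, fewer cells of a type and less RNA per cell cannot be told apart.

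Of the 10 members, 5 lie in a cluster of Cyp4 genes on chromosome 4 of GRCm39 that spans 541.6 kb (chr4:114963434-115504999). In order they are Cyp4a14 (chr4:115343397-115353344, minus strand), Cyp4a10 (chr4:115375461-115390849, plus), Cyp4a31 (chr4:115420818-115436212, plus), Cyp4a32 (chr4:115458134-115479704, plus) and Cyp4b1 (chr4:115476281-115504999, minus). The 4 Cyp4f members lie in a second cluster, of 505.1 kb, on chromosome 17 (chr17:32671694-33176842). Cyp4v3 stands alone on chromosome 8 (chr8:45757972-45786330, minus strand).

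Cyp4a10, Cyp4a31 and Cyp4a32 are near-identical copies, and this sets how finely their reads can be told apart. Over the coding bases of the canonical transcripts, Cyp4a10 and Cyp4a31 were 96.6% identical, with 52 differences over 1527 aligned bases. Cyp4a10 and Cyp4a32 were 97.9% identical, with 25 differences over the 1209 bases of the canonical Cyp4a32 coding sequence. Cyp4a14, their neighbour, shared only 76.8% of its aligned coding bases with Cyp4a10. A stretch of coding sequence as long as 1 sequencing read shows the closeness. It is the first such stretch of a single Cyp4a10 exon in which Cyp4a32 has no difference, and it lies in exon 8 of Cyp4a10 (GRCm39, chr4:115382695-115382795, plus strand). Capitals mark bases that differ from Cyp4a10, and there were 3 in Cyp4a31 and 13 in Cyp4a14. The aligned bases lie at chr4:115428155-115428255 in exon 8 of Cyp4a31, at chr4:115468414-115468514 in exon 5 of Cyp4a32 and at chr4:115348574-115348674, on the minus strand, in exon 8 of Cyp4a14.
Cyp4a10: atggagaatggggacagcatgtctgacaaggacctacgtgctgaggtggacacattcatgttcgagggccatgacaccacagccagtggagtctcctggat
Cyp4a31: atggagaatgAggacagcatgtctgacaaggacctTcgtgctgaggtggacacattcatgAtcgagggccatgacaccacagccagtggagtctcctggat
Cyp4a32: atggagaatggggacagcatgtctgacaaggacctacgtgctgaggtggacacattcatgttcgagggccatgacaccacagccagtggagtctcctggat
Cyp4a14: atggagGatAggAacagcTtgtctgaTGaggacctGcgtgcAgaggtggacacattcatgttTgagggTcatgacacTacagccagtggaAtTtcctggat

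A second stretch was sought among read-length coding stretches within 1 exon that align without a gap to all 3 relatives. Of these, the one that set Cyp4a10 most apart from both copies lies in exon 1 (GRCm39, chr4:115375583-115375683, plus strand). There, Cyp4a32 differed at 3 bases and Cyp4a31 at 8, while Cyp4a14 differed at 28. Their aligned bases, also in exon 1, lie at chr4:115458236-115458336, chr4:115420978-115421078 and, on the minus strand, chr4:115353146-115353246. Capitals again mark bases that differ from Cyp4a10.
Cyp4a10: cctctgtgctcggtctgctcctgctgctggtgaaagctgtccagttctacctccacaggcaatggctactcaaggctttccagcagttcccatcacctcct
Cyp4a31: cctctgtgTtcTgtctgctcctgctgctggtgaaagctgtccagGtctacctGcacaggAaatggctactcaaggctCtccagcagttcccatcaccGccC
Cyp4a32: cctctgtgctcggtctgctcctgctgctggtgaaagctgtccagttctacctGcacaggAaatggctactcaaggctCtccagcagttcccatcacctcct
Cyp4a14: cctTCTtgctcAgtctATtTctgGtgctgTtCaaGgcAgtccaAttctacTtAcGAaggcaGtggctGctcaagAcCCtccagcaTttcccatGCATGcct

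Over all annotated transcripts, 13.4% of the windows of Cyp4a10 with the length of 1 sequencing read occurred letter for letter in Cyp4a31 or Cyp4a32. The share was 12.7% for Cyp4a32 and 7.1% for Cyp4a31. Allowing 1 differing base raised the shares to 34.0%, 28.7% and 11.4% for Cyp4a10, Cyp4a32 and Cyp4a31. By contrast, 24.8%, 43.3% and 51.9% of the windows of these genes differed by more than 4 bases from every other Cyp4 gene. A read from an identical window cannot be given to 1 gene, and how such reads were counted is not stated in the sources used here, so the 3 genes were also summed. Of the other members, Cyp4f16 shared 2.7% of its windows, nearly all with the non-member Cyp4f37, and Cyp4b1 shared 0.9% with its pseudogenes. The remaining 5 members shared no window, and every window of Cyp4v3 differed from its nearest relative by at least 28 bases. Annotated exons of Cyp4a32 and Cyp4b1 overlap by 657 bases on opposite strands, and those of Cyp4v3 overlap Gm45753 by 313 bases on the same strand. The library kit keeps the strand, but the strand setting of the counting is not stated in the sources used here.

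**Figure D1:**
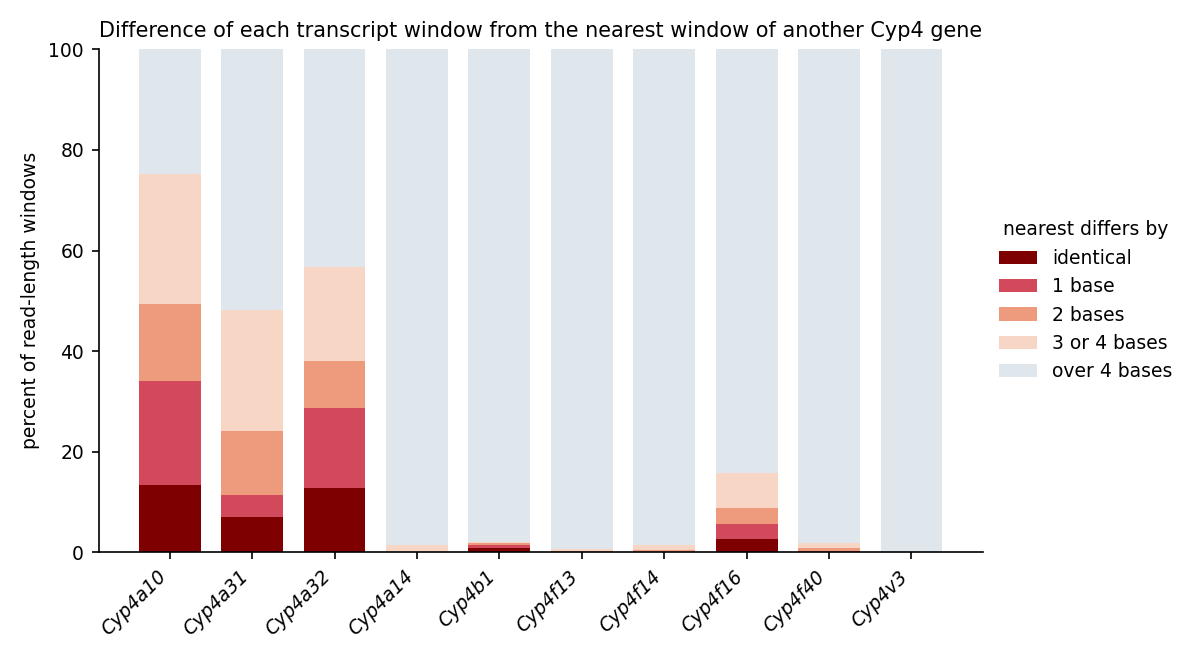
Each bar is 1 of the 10 members and splits its read-length transcript windows by the number of bases by which the nearest window of another Cyp4 gene differs, in percent of windows. The dark red share of identical windows is 13.4%, 7.1% and 12.7% for Cyp4a10, Cyp4a31 and Cyp4a32, and 2.7% at most in the other 7.

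With LDL, the 3 near-identical Cyp4a genes went from near the detection limit to levels that overlapped those of the well-expressed members. Cyp4a10, a fatty acid omega-hydroxylase, was at 3.06, 7.46 and 7.33 normalized counts in PBS-treated organoids of mice 1, 2 and 3. In LDL-treated organoids of the same mice it was at 682, 2346 and 1189. The lowest LDL library was far above the highest PBS library, and mouse 2 was the highest in both treatments. The mean was 5.95 ± 2.50 with PBS and 1406 ± 853 with LDL (SD, n = 3), a log2 difference of 7.56 (standard error, SE, 0.47) on the log2(normalized count + 1) scale. Among the 18459 genes tested, no other gene had a larger log2 difference. Within mice the level was 223-fold, 315-fold and 162-fold higher with LDL. The PBS side of these folds rested on 3, 6 and 9 reads, and the 95% counting interval in mouse 1 ran from 75.8-fold to 1083-fold.

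Cyp4a32 was at 13.3, 16.2 and 5.70 normalized counts with PBS, and at 139, 461 and 249 with LDL. As for Cyp4a10, the groups did not overlap and the LDL library of mouse 2 was highest and that of mouse 1 lowest. The within-mouse folds of Cyp4a32 were 10.5, 28.5 and 43.7, and its log2 difference was 4.42 (SE 0.50). Cyp4a31 was at 2.04, 6.21 and 0 normalized counts with PBS, and at 41.5, 164 and 76.1 with LDL. Its groups did not overlap either, and the order of the LDL libraries was the same. The log2 difference of Cyp4a31 was 4.86 (SE 0.77). Its fold was 26.4 in mouse 2. In mouse 3, PBS held no read, and the fold set against 3 reads in that library was 31.2. The lower limit of the 95% counting interval there was 24.8. In mouse 1 the fold of Cyp4a31 was 20.3, from 34 against 2 reads, with a 95% counting interval of 5.21 to 174.

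Summed over the 3 genes, the normalized count was 20.4 ± 8.58 with PBS and 1783 ± 1080 with LDL (SD, n = 3), and it was 46.9-fold, 99.6-fold and 116-fold higher in mice 1, 2 and 3. The sum does not depend on how reads that were counted once are divided among the copies. It would differ if shared reads were dropped or counted for more than 1 copy, and which was done is not stated. In LDL-treated organoids the copies stood in nearly 1 ratio: for 100 Cyp4a10 reads there were 20.4, 19.7 and 21.0 Cyp4a32 reads and 6.08, 6.98 and 6.40 Cyp4a31 reads. Cyp4a10 made up 79.1%, 79.0% and 78.5% of the 3-gene reads with LDL. With PBS, the 3 genes had 18, 24 and 16 reads in all, of which Cyp4a10 held 16.7%, 25.0% and 56.3%. The part that reads from shared sequence have in these ratios was not tested.

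Cyp4a14, which encodes a fatty acid omega-hydroxylase like Cyp4a10 and is its direct neighbour, was not detectable as changed at this depth. It had 0, 1 and 0 reads with PBS and 3, 0 and 0 reads with LDL in mice 1, 2 and 3, and so stood at or under the limit of 3 reads that a count of 0 allows in each library. No fold is given for it. Since 98.6% of its windows differed from the nearest other Cyp4 gene by more than 4 bases, its reads have sequence of their own to map to. Low levels were shared by 5 other protein-coding Cyp4 genes of the same cluster (Cyp4a12a, Cyp4a12b, Cyp4a29, Cyp4a30b and Cyp4x1, named after their values were seen), which had at most 3 reads in any library.

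**Figure D2:**
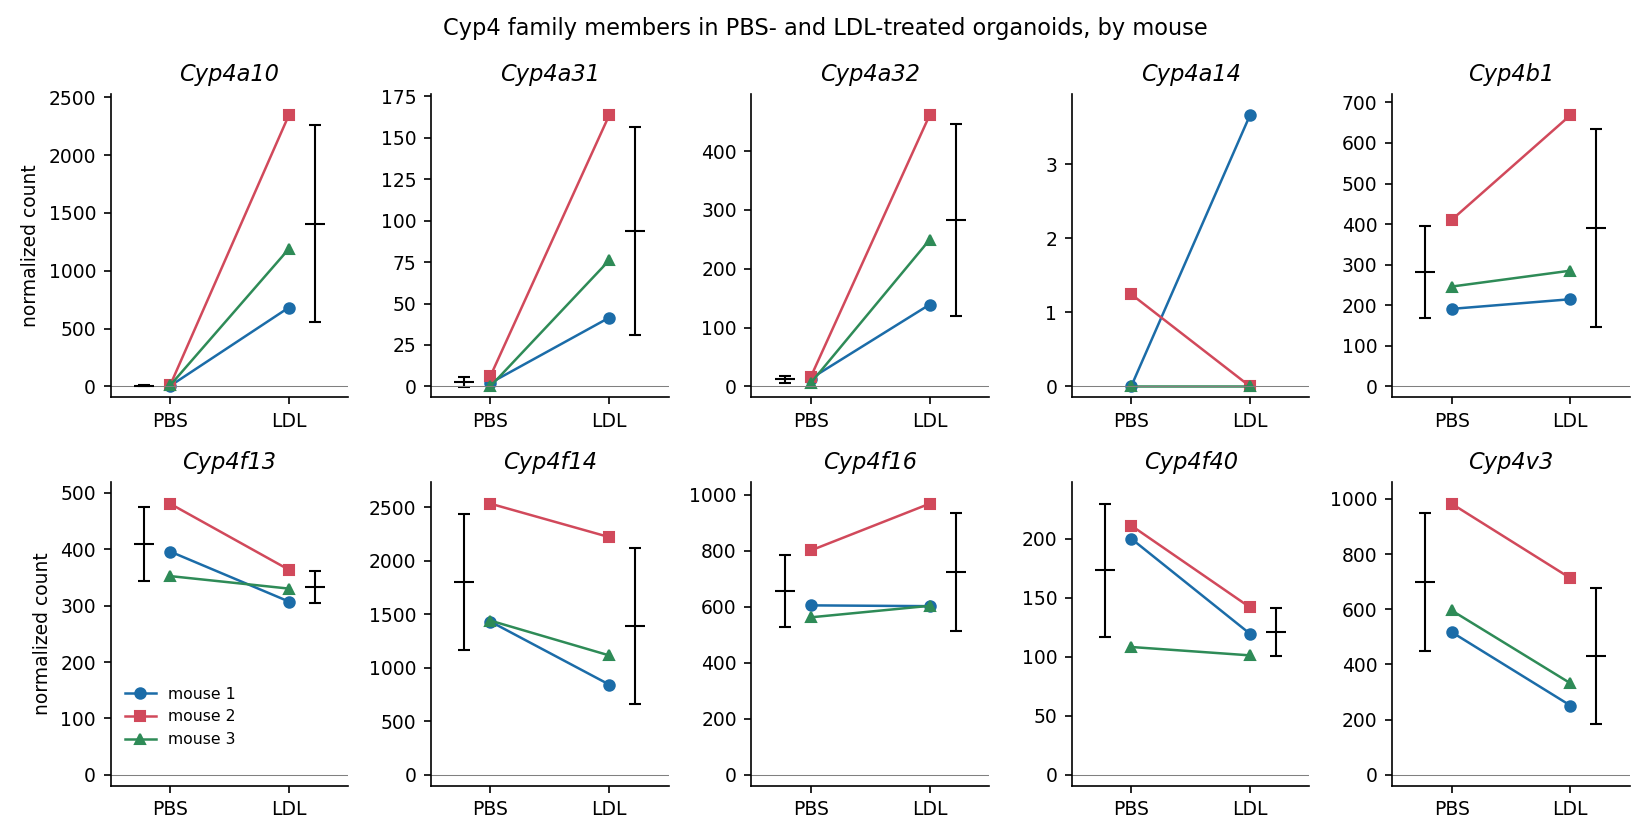
Each panel shows the normalized count of 1 member (linear axis) with PBS and with LDL, with a line for each of the 3 mice and, except for Cyp4a14, the mean ± SD in black. The LDL values lie above all PBS values for Cyp4a10, Cyp4a31 and Cyp4a32, the groups overlap for the others, and mouse 2 is the highest of its group in every panel but that of Cyp4a14.

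The other 6 members were well expressed in both treatments, and in each of them the groups overlapped. Cyp4f14, which hydroxylates leukotrienes and vitamin E, was at 1431, 2532 and 1440 normalized counts with PBS and at 843, 2220 and 1115 with LDL. It was lower with LDL in all 3 mice, at 0.589, 0.877 and 0.775 of the PBS level, but mouse 2 with LDL was above mice 1 and 3 with PBS. Cyp4v3, the mouse counterpart of the human gene mutated in Bietti crystalline dystrophy, was at 518, 983 and 596 with PBS and at 251, 713 and 332 with LDL. It too was lower in all 3 mice, at 0.486, 0.725 and 0.557 of PBS. Its log2 difference was -0.78 (SE 0.39).

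Cyp4f13 was at 396, 481 and 353 normalized counts with PBS and at 307, 364 and 330 with LDL, lower in each mouse, with a log2 difference of -0.29. Cyp4f40 was at 200, 211 and 108 with PBS and at 120, 142 and 101.2 with LDL, also lower in each mouse, with a log2 difference of -0.47. For both genes mouse 3 moved least, to 0.937 of PBS for Cyp4f13 and 0.934 for Cyp4f40. Cyp4f16 was at 605, 802 and 563 with PBS and at 603, 969 and 604 with LDL, level in mouse 1 and higher in mice 2 and 3. Cyp4b1, which also oxidizes xenobiotics in the lung, was at 191, 410 and 246 with PBS and at 215, 668 and 285 with LDL. Cyp4b1 was higher in each mouse, by 1.13-fold, 1.63-fold and 1.16-fold, the most in mouse 2. The strand-opposed overlap with Cyp4a32 named above touches this gene, and its part in the difference was not tested.

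The 9 members that passed the filter, a mean of at least 10 normalized counts, were all highest in mouse 2. In PBS-treated organoids mouse 2 was the highest of the 3 libraries for all 9, and among LDL-treated organoids it was again the highest for 9 of 9. For the 3 near-identical Cyp4a genes the order with PBS rests on few reads. Cyp4a10 was at 7.46 in mouse 2 and 7.33 in mouse 3, from 6 and 9 reads, and Cyp4a32 had 13 reads in both mouse 1 and mouse 2. The LDL library of mouse 1, which stood apart above, was the lowest of its group for 8 of 9 members. Over all genes tested, mouse 2 was the highest in 33.8% of genes with PBS and in 40.0% with LDL, and LDL mouse 1 was the lowest of its group in 42.2%. Not all other Cyp4 genes were highest in mouse 2, and Cyp4f41-ps was highest in mouse 3 with either treatment. The enterocyte markers moved with the mice in the same way: their sum was 27820, 52260 and 27040 normalized counts with PBS and 28490, 54240 and 32030 with LDL. Goblet cell markers summed to 46330, 44430 and 40520 with PBS and to 28660, 29540 and 24130 with LDL, but the genes of that list were unequal. In limma Fcgbp fell (log2 difference -0.86, adjusted p = 0.0437) and Clca1 rose (2.81, adjusted p = 0.0413). Stem cell markers summed to 17150, 13170 and 25500 with PBS and to 6947, 13440 and 9743 with LDL. In limma with the mouse as a block Olfm4 and Smoc2 fell and Ascl2 rose (log2 differences -1.17, -0.79 and 1.22), while none of the 3 passed in limma without it. Paneth cell markers summed to 11920, 9058 and 14820 with PBS and to 8274, 9203 and 9449 with LDL. Of that list, Defa24 fell and Mmp7 rose in limma with the block (log2 differences -0.70 and 0.75), and neither passed in limma without it. The part of these cell type differences in the members' levels was not tested.

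In counts, 4 members were higher with LDL in all 3 mice, 4 were lower in all 3 and 1 (Cyp4f16) was mixed. Of all genes tested, 24.2% were higher and 26.8% lower in all 3 mice. Groups without overlap occurred in 3 members, all higher with LDL, and in 11.9% of all genes in that direction and 12.3% in the other. In the limma fit across all genes, at over 1.5-fold and an adjusted p-value under 0.05, 3 members passed as higher and 0 as lower, against 0.878% and 0.395% of all genes. These 3 were Cyp4a10, Cyp4a31 and Cyp4a32, of which 2, Cyp4a10 and Cyp4a31, passed the filter on low levels only through the LDL libraries, and nothing is read from the count against the share of all genes. Of the 6 others, 0 had an unadjusted p-value under 0.05 in this fit, and edgeR and DESeq2 without the mouse also called the same 3 as higher and 0 as lower. The shares of all genes were 1.01% higher and 0.379% lower in edgeR, and 4.58% and 1.89% in DESeq2. With the mouse as a block, limma called the same 3 as higher and Cyp4v3 as lower, against 5.68% and 3.46% of all genes, and so did DESeq2 with the block, against 5.31% and 2.77%. The members were chosen with this contrast known, so these counts describe them and are not a test. Calls in limma without the block changed when single libraries were left out, for members and for all genes. Only Cyp4a10 passed without LDL mouse 3 or without PBS mouse 1. In these fits 18 and 27 of all 18459 genes passed as higher, against 162 with all libraries. Cyp4a10 and Cyp4a32 passed without PBS mouse 3, beside 39 of all genes. Cyp4v3 passed as lower without LDL mouse 2, beside 1133 of all genes, against 73 with all libraries. Without both libraries of mouse 3 and without the block, 0 members and 0 of all genes passed. With the block and without mouse 3, the 3 Cyp4a genes passed as higher and Cyp4v3 no longer passed, beside 265 higher and 77 lower of all genes.

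**Figure D3:**
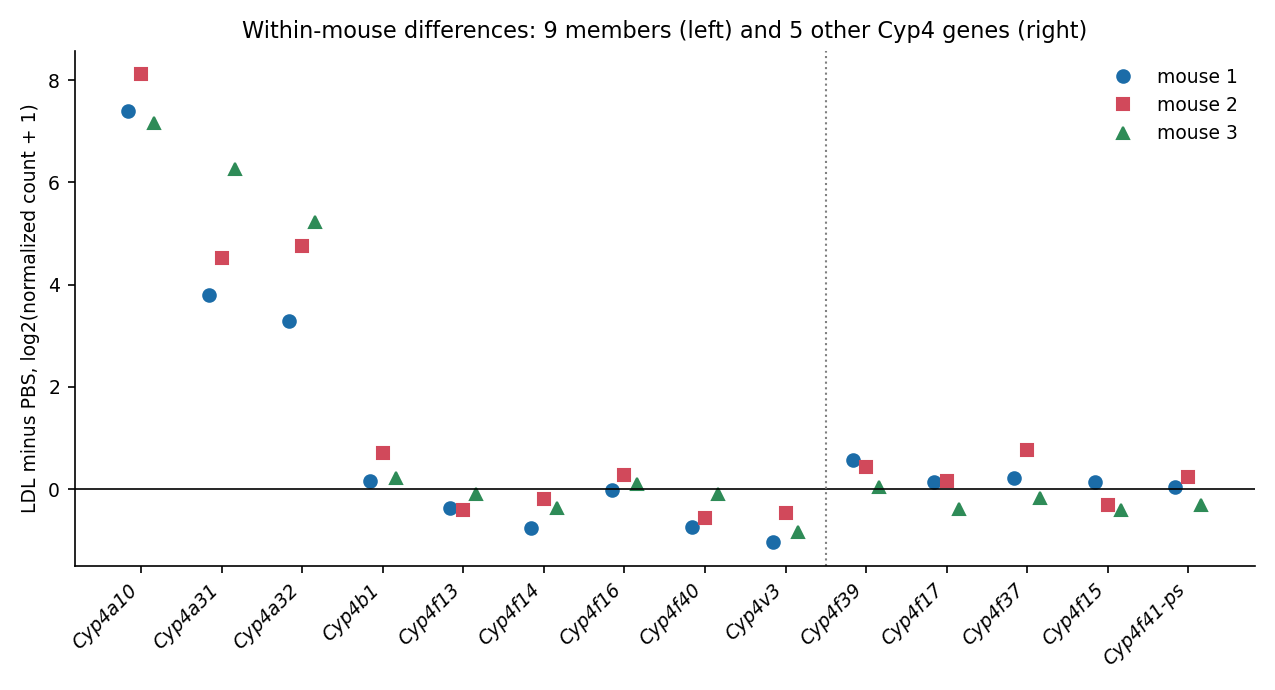
Points are within-mouse differences, LDL minus PBS, on the log2(normalized count + 1) scale, for the 9 members above the filter on low levels (left of the dotted line) and the 5 other Cyp4 genes above it (right). Cyp4a10, Cyp4a31 and Cyp4a32 lie at 3.29 or higher in each mouse, and the points of the other genes lie between -1.04 and 0.77.

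Per length of exon, LDL changed which gene led the family. Levels per kb of annotated exon allow genes to be set side by side. With PBS the order was Cyp4f14 (290 ± 102 normalized counts per kb), Cyp4v3 (180 ± 64.0), Cyp4f16 (103 ± 19.9), Cyp4f40 (65.8 ± 21.5), Cyp4f13 (40.7 ± 6.49) and Cyp4b1 (37.4 ± 15.1, SD, n = 3). These 6 stood above the Cyp4a genes, of which Cyp4a32 was highest at 5.38 ± 2.48 per kb. Ranges of neighbours in this order overlapped except between Cyp4v3 and Cyp4f16, between Cyp4f16 and Cyp4f40, and between Cyp4b1 and Cyp4a32. With LDL, Cyp4a10 came first at 666 ± 404 per kb, ahead of Cyp4f14 at 224 ± 117 and Cyp4a32 at 130 ± 75.3. Cyp4f16 at 113 ± 32.9 and Cyp4v3 at 111 ± 63.3 followed, and the ranges of all neighbours down to Cyp4f13 overlapped. Only the step from Cyp4f13, at 33.2 ± 2.82, to Cyp4a14 was free of overlap.

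Within each library 1 member led in per-kb level, but with LDL this rests on the division by annotated exon length. That length is 2112 bases for Cyp4a10 and 6209 for Cyp4f14, whereas their coding lengths are 1527 and 1572 bases. In normalized counts, Cyp4f14 was above Cyp4a10 in LDL mouse 1 (843 against 682). Cyp4a10 was slightly above Cyp4f14 in LDL mouse 2 (2346 against 2220) and mouse 3 (1189 against 1115). The shares that follow are per kb and rest on the same division. Cyp4f14 was the top member in all 3 PBS libraries, with 38.0%, 41.6% and 39.5% of the summed per-kb level of the 10 members in mice 1, 2 and 3. Cyp4a10 was the top member in all 3 LDL libraries, with 40.2%, 49.2% and 47.9%, compared with 0.590% at most with PBS. Together with Cyp4a31 and Cyp4a32 it made up 50.2%, 61.5% and 60.2% of the family with LDL. The 4 Cyp4f members went from 72.6%, 67.3% and 67.4% with PBS to 38.1%, 26.5% and 29.4% with LDL. The summed per-kb level of all 10 members was 1.32-fold, 2.30-fold and 2.00-fold higher with LDL, whereas that of the 7 members other than the 3 near-identical copies was 0.668, 0.899 and 0.805 of the PBS level.

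**Figure D4:**
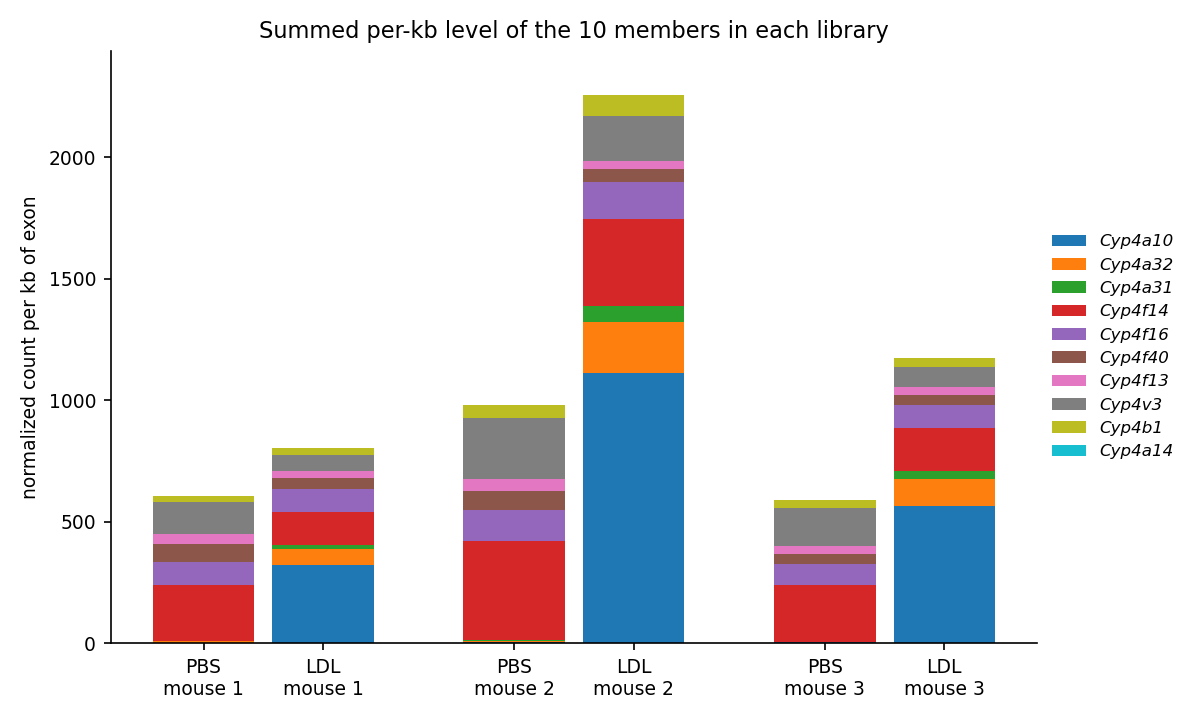
Stacked bars give the normalized count per kb of exon of each of the 10 members in each of the 6 libraries, on a linear axis, with PBS and LDL side by side for each mouse. Cyp4f14 is the largest block in the PBS bars and Cyp4a10 in the LDL bars, where it holds 40.2% to 49.2% of the total.

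Of the 18 Cyp4 genes that are no members, 5 had a mean of at least 10 normalized counts: Cyp4f39, Cyp4f17, Cyp4f37, Cyp4f15 and the pseudogene Cyp4f41-ps, all on chromosome 17. Their mean levels over the 6 libraries lay between 19.7 and 61.3. None passed the thresholds in limma with or without the mouse, in edgeR or in DESeq2, and 0 had an unadjusted p-value under 0.05 in limma. Their log2 differences ran from -0.19 for Cyp4f15 to 0.35 for Cyp4f39. The other 13 had at most 12 reads in a library.

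Genes within or beside the clusters are described too. They were Stil, Pdzk1ip1, Efcab14 and Atpaf1 on chromosome 4, and Akap8l, Wiz, Zfp871, Zfp799, Zfp870, Zfp472 and Zfp952 on chromosome 17. Of these 11 genes, 0 passed the thresholds in limma with or without the mouse, in edgeR or in DESeq2. Of all genes, 0.878% were higher and 0.395% lower in limma without the mouse, and nothing is read from 0 of 11 at such shares. The genes on chromosome 4 all lie outside the cluster, so whether the difference of the Cyp4a genes reached across it was not tested. In limma, 1 of the 11 had an unadjusted p-value under 0.05. The largest difference was that of Pdzk1ip1, a small membrane protein gene just before the chromosome 4 cluster, at 30.5 ± 4.77 normalized counts with PBS and 65.1 ± 29.6 with LDL (SD, n = 3). Its log2 difference was 0.95 ± 0.40 (SE; adjusted p = 0.238, limma with Benjamini-Hochberg adjustment). Efcab14 and Atpaf1, on the far side of Cyp4b1, differed by 0.14 and 0.07 on the log2 scale.

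The promoters were searched for the motif of PPAR with its partner RXR, a direct repeat written AGGTCANAGGTCA, on both strands and with up to 2 mismatches in its 12 fixed letters. RefSeq promoters on GRCm38.p6, from 250 bases before to 50 after the start, were given for 7 of the 10 members, which do not include Cyp4a10, Cyp4a14 and Cyp4a31. Of the 7, only Cyp4f16 held a match, on the minus strand 181 to 169 bases before its start, and over all promoters 1268 of 32851 (3.86%) held one. Cyp4a32, the only one of the 3 near-identical copies with a promoter sequence given, came no nearer than 3 mismatches. The 250 bases before the starts of Cyp4a32 (GRCm38.p6, chr4:115600688-115600937, plus strand) and Cyp4f16 (GRCm38.p6, chr17:32536307-32536556, plus strand) are shown because they hold the contrast between a member that was far higher with LDL and one that was not. Capitals mark the window nearest to the motif, which in both reads along the opposite strand. A match is a likeness of letters and not a binding site, and a motif outside these bases is not covered.
Cyp4a32: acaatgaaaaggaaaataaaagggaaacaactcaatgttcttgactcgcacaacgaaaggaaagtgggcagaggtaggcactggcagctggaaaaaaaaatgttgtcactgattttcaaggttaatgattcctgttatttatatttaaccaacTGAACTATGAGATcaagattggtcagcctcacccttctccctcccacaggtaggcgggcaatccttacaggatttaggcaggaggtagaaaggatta
Cyp4f16: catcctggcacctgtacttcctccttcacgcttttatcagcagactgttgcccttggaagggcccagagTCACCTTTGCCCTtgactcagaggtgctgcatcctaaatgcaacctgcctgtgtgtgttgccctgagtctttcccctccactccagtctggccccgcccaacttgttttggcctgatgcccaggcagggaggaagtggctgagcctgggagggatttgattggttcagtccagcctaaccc

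Genes that act before and after the hydroxylases were taken from 6 lists with 69 genes, of which 59 were tested. Of these, 7 rose and 0 fell with LDL in limma (adjusted p-value under 0.05 and over 1.5-fold), against 0.878% and 0.395% of all genes, while 15 were higher and 7 lower at an unadjusted p-value under 0.05. edgeR also called 7 and 0, and DESeq2 called 13 and 3. With the mouse as a block, 13 rose and 5 fell in limma and in DESeq2, against 5.68% and 3.46% of all genes in limma. The 7 that rose without the block comprised Por, 2 genes of the alcohol and aldehyde steps and 4 peroxisomal genes. Without both libraries of mouse 3, 0 of the 59 and 0 of all genes rose without the block. With the block, 7 of the 59 rose and 4 fell, beside 265 and 77 of all genes. In limma without the block, 1 rose when LDL mouse 3, PBS mouse 1 or PBS mouse 3 was left out, beside 18, 27 and 39 of all genes. The count was 3 without PBS mouse 2, beside 55 of all genes. Without LDL mouse 2, 7 fell, beside 1133 of all genes.

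Por, cytochrome P450 reductase, the electron donor of all microsomal P450 enzymes, was at 2791, 3432 and 3144 normalized counts with PBS and at 5561, 6751 and 6174 with LDL. Every LDL library was above every PBS library, and Por rose by 0.98 on the log2 scale (adjusted p = 0.0113, limma). It was the only 1 of 5 electron donor genes to pass, and the median log2 difference of that list was -0.05, beside -0.016 over all genes tested.

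Of 7 tested genes of the alcohol and aldehyde steps, 2 rose, and the median log2 difference was 0.495. Aldh3a2, the fatty aldehyde dehydrogenase, was at 1503, 1699 and 1509 normalized counts with PBS and at 3231, 3386 and 3111 with LDL. Every LDL library was above every PBS library, and the log2 difference was 1.05 (adjusted p = 0.00339, limma). Adh4, an alcohol dehydrogenase that also oxidizes retinol, rose from a low level, from 19.2 ± 8.75 to 99.5 ± 40.6 (SD, n = 3; log2 difference 2.33, adjusted p = 0.0395). Adh7, a related enzyme, passed in limma only with the mouse as a block, while DESeq2 without the block called 3 genes of this list as higher.

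Peroxisomal genes were the list with the most members called, 4 of 15, with a median log2 difference of 0.56 and 12 of 15 above 0. Acaa1b, a thiolase that closes a round of peroxisomal beta-oxidation, was at 127, 175 and 143 normalized counts with PBS and at 366, 1067 and 677 with LDL. As with the Cyp4a genes, LDL mouse 2 was highest and LDL mouse 1 lowest, and the log2 difference was 2.12 (adjusted p = 0.0353, limma). Crot, the carnitine octanoyltransferase that exports shortened chains, rose by 0.96 on the log2 scale (adjusted p = 0.0305). Abcd3, a transporter of dicarboxylic and branched acids into peroxisomes, rose by 0.79 (adjusted p = 0.0226). The groups of Acaa1b, Crot and Abcd3 did not overlap. In limma, Ehhadh, Acot3 and Acot4 passed only with the mouse as a block, while DESeq2 without the block called 7 genes of this list as higher.

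None of 11 tested PPAR and RXR receptors and cofactors passed in limma without the block, where 1 was higher and 1 lower at an unadjusted p-value under 0.05, or in edgeR, and DESeq2 called 1 as higher. Ppara, the receptor of the Cyp4a genes in liver, was at 427, 589 and 496 normalized counts with PBS and at 387, 689 and 520 with LDL (log2 difference 0.05, adjusted p = 0.931). The groups overlapped fully, and Pparg did so too, at 738 ± 41.1 with PBS and 732 ± 69.9 with LDL (adjusted p = 0.961). Ppard was at 615, 440 and 551 with PBS and at 1220, 568 and 1048 with LDL, higher within each mouse but with overlapping groups. Its log2 difference of 0.76 had an adjusted p of 0.183 in limma without the block and of 0.00777 with it.

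The P450 enzymes that turn arachidonic acid into epoxides, and the hydrolases that open those, held 0 called genes of 15 in limma and in edgeR, with a median log2 difference of -0.11. At an unadjusted p-value under 0.05, 0 were higher and 5 lower, and DESeq2 called 3 as lower. With the mouse as a block 5 of the 15 fell (Cyp2c29, Cyp2c38, Cyp2c68, Cyp2s1 and Cyp2u1). Cyp2u1, a fatty acid hydroxylase outside the Cyp4 family, had the largest of these differences, at 408, 618 and 286 normalized counts with PBS and 75.6, 236 and 126 with LDL. Its groups did not overlap (log2 difference -1.66, adjusted p = 0.0996 without the block and 0.00329 with it). Of 6 tested genes of eicosanoid synthesis, 0 passed in limma without the block or in edgeR, 1 was higher at an unadjusted p-value under 0.05, and Ptgs2 (cyclooxygenase) passed with the block and in DESeq2. The genes of this and the preceding paragraphs that passed in limma only with the block were named after their values were seen.

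**Figure D5:**
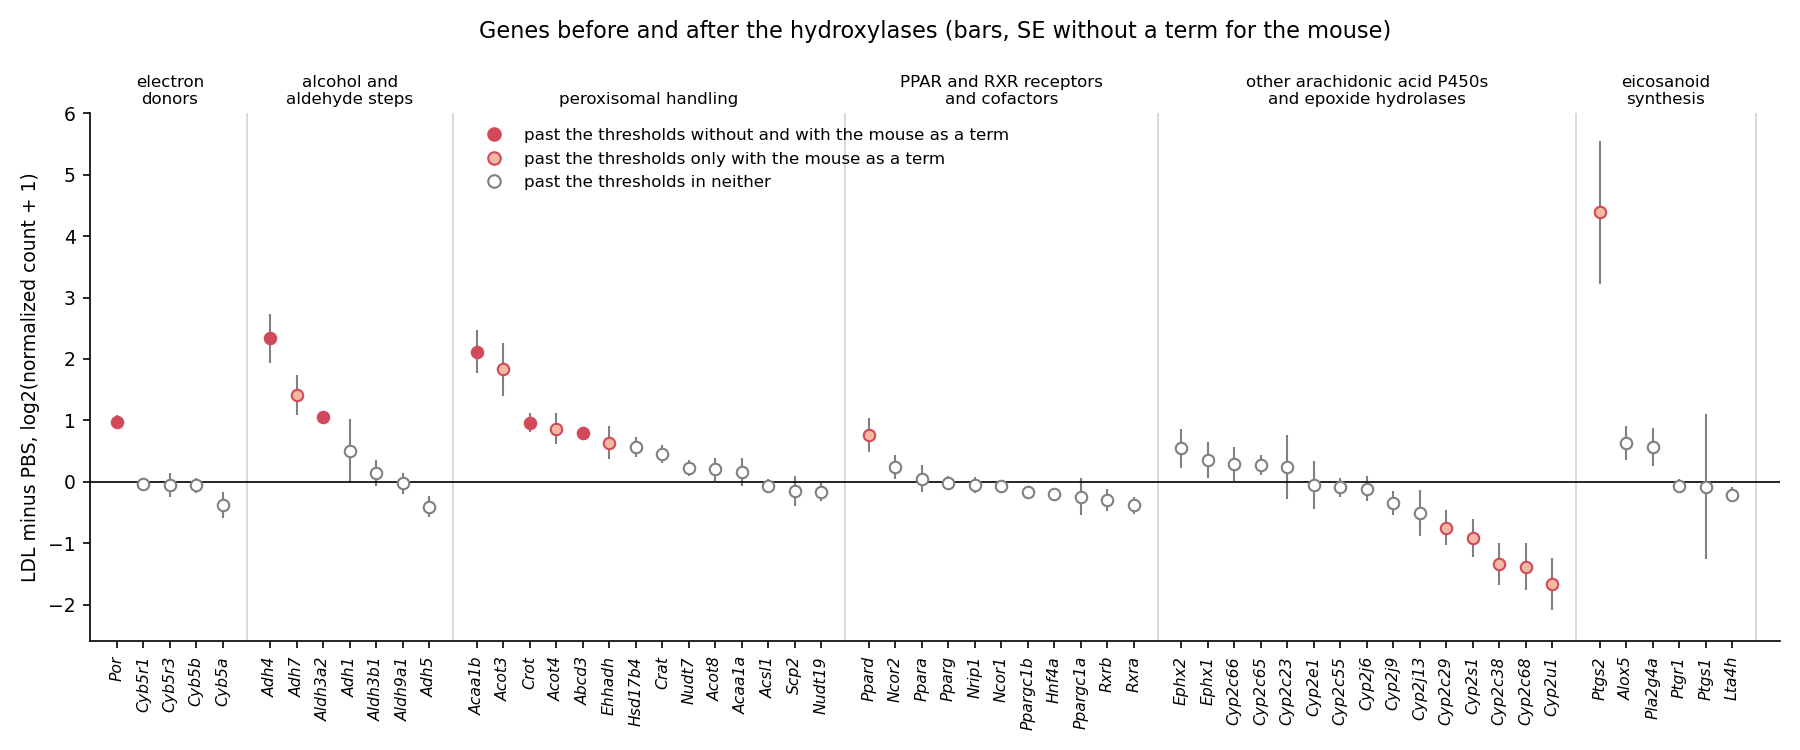
Points are log2 differences, LDL minus PBS, of 58 of the 59 tested genes before and after the hydroxylases, with the standard error without a term for the mouse, grouped by list. In limma, the 6 filled points passed the thresholds without and with the mouse as a block, and the 11 pale points only with it, 6 above and 5 below 0.

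The genes whose pattern over the 6 libraries was most like that of Cyp4a10 were found from the root mean square difference of log2 values after each gene's mean was removed, outside the Cyp4 family. They included Isx (0.85), an intestinal homeobox factor, Pdk4 (1.30), a kinase of pyruvate dehydrogenase, Gm43189 (1.82) and Sptssb (1.93), a small subunit of serine palmitoyltransferase. Isx was at 5.10, 2.49 and 3.26 normalized counts with PBS and at 359, 602 and 317 with LDL, so that it was less than 1 log2 unit from Cyp4a10 on this measure. For Pdk4 the values were 10.2, 3.73 and 9.77 with PBS and 633, 435 and 358 with LDL. In Pdk4, LDL mouse 1 was the highest library, whereas in Cyp4a10 it was the lowest of the 3 with LDL. The measure uses the same libraries that chose Cyp4a10 and is a description over 6 libraries. No gene is named for Cyp4a14, which had 4 reads in all.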

How the data were processed

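RNA-Seq was available for 6 organoid libraries, 3 LDL-treated and 3 PBS-treated, grouped by their treatment labels. Per the methods and labels, ribosomal RNA was depleted, stranded libraries were sequenced single-end, demultiplexed with bcl2fastq 2.20 (submitters' processing notes), aligned to GRCm39 with STAR and counted with featureCounts. The deposited signal values are counts per gene that the authors divided by 1 size factor per library. Whole reads were recovered for 100% of values (tolerance 0.01). Of 55416 genes, 12377 held no read. GENCODE M39 gave names for 54749 identifiers and none for 667.

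Values plus 1 were log2-transformed, and genes under a mean of 10 were left out, leaving 18459. Such log2 differences understate the change of low genes. The treatments were compared in limma 3.58.1 in R 4.3.3 (eBayes with a trend, two-sided, Benjamini-Hochberg, adjusted p under 0.05 and over 1.5-fold), without a term for the mouse, since the study's methods name none. Both libraries of a replicate number carry the same animal identifier, and their deviations from the group means correlated at 0.484, 0.421 and 0.462 across genes in mice 1, 2 and 3, so the numbers pair the samples and results with the mouse as a block stand beside those they alter. Alternatives were pseudocounts of 0.5 and 5, no filter, a mean of at least 50, quantile normalization, the block, edgeR 4.0.16 and DESeq2 1.42.0 on recovered reads, and libraries left out. The steps were tested on simulated data. P-values measure the spread between these samples. Intervals are 95% exact binomial intervals and, like the floor of 3 reads, cover counting error only, since reads without molecular identifiers are not independent molecules.

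The members and gene lists were chosen with earlier results of these data known, and the lists came from general knowledge. Named genes were all members, other Cyp4 genes with a mean of at least 10, called pathway genes (at most 4 per list), the 3 PPAR genes, the 5 genes most like Cyp4a10 and genes beside the clusters. Some genes under these rules are not reported here. Transcript windows and coding sequences came from GENCODE M39, aligned with Biopython 1.88 on Python 3.11.15, and promoters from RefSeq on GRCm38.p6.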

Additional observations from a re-analysis of the deposited data

How the results depend on the processing

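The log2 differences of the 9 tested members were recomputed under up to 18 alternatives each, 161 values in all, and all stayed within the spread between replicates. Cyp4a10 stayed between 6.86 and 7.99, Cyp4a32 between 3.99 and 4.99 and Cyp4a31 between 3.55 and 5.54 (17 alternatives, since a mean of at least 50 dropped it), while Cyp4b1 and Cyp4f16 changed sign without LDL mouse 2, to -0.12 and -0.105, in ranges up to 0.70 and 0.28. Single libraries moved the others by over 1.5 times without a change of sign: Cyp4v3 lay between -1.22 (without LDL mouse 2) and -0.465 (without LDL mouse 1), Cyp4f14 between -0.84 (without LDL mouse 2) and -0.14 (without LDL mouse 1), Cyp4f40 between -0.78 (without PBS mouse 3) and -0.30 (without PBS mouse 2), and Cyp4f13 between -0.39 (without PBS mouse 3) and -0.17 (without PBS mouse 2). The counts of called members were 3 higher and 0 lower. With the replicate block 1 was lower, Cyp4v3, in limma, in DESeq2 and in the block fit without mouse 1, which was chosen after seeing the data. In the block fit without mouse 3, 0 were lower and Cyp4v3 was not called. Leaving out libraries gave 0 to 3 members higher and 0 to 1 lower. Over all genes, 162 were higher and 73 lower. These counts were 506 and 245 without a filter on the mean, 1048 and 639 with the replicate block, 846 and 348 with DESeq2, and 981 and 511 with DESeq2 and the block. With the block and without mouse 1 they were 758 and 327, and with the block and without mouse 3 they were 265 and 77. The fit without mouse 3 was also chosen after seeing the data. Leaving out libraries gave 0 to 1179 higher and 0 to 1133 lower. Of the pathway genes 7 were higher and 0 lower. There were 13 higher and 5 lower with the block in limma and in DESeq2, 13 and 3 with DESeq2 alone, 3 lower without a filter, 15 and 5 with the block and without mouse 1, and 7 and 4 with the block and without mouse 3. Leaving out libraries gave 0 to 9 higher and 0 to 7 lower. The cause of these changes was not tested. The depth limits the PBS side of the Cyp4a folds, which rests on 0 to 13 reads per gene and library.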
